A study of Mus musculus with 6 samples.

Results

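The polypeptide GalNAc transferases are the enzymes that start mucin-type O-glycosylation, and 10 of their genes, Galnt1, Galnt2, Galnt3, Galnt4, Galnt6, Galnt7, Galnt10, Galnt11, Galnt12 and Galnt18, were followed in the mammary gland of metformin-treated and control mice. They were taken by symbol from a table of 25160 features that holds 19 Galnt genes, and the other 9 Galnt genes are described only beside them. The family was selected on measured values, the differences of its genes between the same 6 mice, which were known when the list was drawn up, so these differences between the groups are given as a description of these genes and not as a test of the family. All 10 genes had enough counts to enter the statistical fit, which covered 15925 features.

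The mice were wild-type FVB/N females, an inbred laboratory strain, kept on an estrogen-free diet. Mice of the metformin group received metformin, a biguanide drug used against type 2 diabetes, by intraperitoneal injection at 200 mg/kg each day from 8 to 18 weeks of age, and mice of the control group received saline over the same 10 weeks. Whole glands of the fourth mammary pair, without lymph nodes, were profiled by RNA sequencing of poly(A) RNA, with 3 mice in each group and 1 library a mouse, and the stage of the estrous cycle is not given in the sources used here. Because the tissue was not sorted, fewer cells of a type and less RNA per cell cannot be told apart.

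Each transferase attaches a GalNAc sugar from UDP-GalNAc to a serine or threonine of a protein passing through the Golgi apparatus. The isoenzymes differ in the peptides they accept, and some act best on peptides that already carry a GalNAc. C1galt1 and other enzymes then extend the sugar, and sialyltransferases and fucosyltransferases cap the chain. In the mammary gland, mucins of the apical epithelial surface and kappa-casein of milk are well-known carriers of such chains.

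The stretch of coding sequence around the metal-binding motif of the catalytic domain is shown for Galnt3 and Galnt7. For comparison it is also shown for Galnt6, the closest relative of Galnt3, for Galnt10 and for the most abundant member, Galnt2. The motif was found in the GENCODE vM21 coding sequences by translating them and searching for aspartate, any residue, histidine, cysteine and glutamate in a row. The capitals mark the 3 codons from the aspartate to the histidine, and 24 bases are shown on either side of them.
Galnt3: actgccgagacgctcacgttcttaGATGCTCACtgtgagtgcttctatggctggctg
Galnt6: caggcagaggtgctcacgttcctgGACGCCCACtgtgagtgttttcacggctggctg
Galnt7: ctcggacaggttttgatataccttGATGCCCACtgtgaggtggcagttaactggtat
Galnt10: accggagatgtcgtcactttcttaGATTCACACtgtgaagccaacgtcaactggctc
Galnt2: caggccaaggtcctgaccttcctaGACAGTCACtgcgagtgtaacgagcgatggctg

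The stretch of Galnt3 lies on the minus strand of chr2:66096002-66097746 (GRCm38) and its motif starts at codon 277 of 633. That of Galnt6 lies on the minus strand of chr15:100703560-100704144, that of Galnt7 on the minus strand of chr8:57545361-57545677, that of Galnt10 on the plus strand of chr11:57765676-57765732 and that of Galnt2 on the plus strand of chr8:124328130-124328186. Those of Galnt3, Galnt6 and Galnt7 are each interrupted in the genome by an intron, which is not shown. Over the 57 bases Galnt6 was identical to Galnt3 at 75.4%, Galnt2 at 63.2%, Galnt10 at 61.4% and Galnt7 at 47.4%. The motif was found in 9 of the 10 genes. The search did not find it in Galnt18, which belongs to a subfamily in which little transferase activity has been measured.

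Sequence shared between the members is short, which bears on whether reads of a gene could be counted for another. The longest identical run between the annotated transcripts of any of the 45 pairs was 23 bases, and it was 20 bases for pairs with Galnt3 and 17 bases for pairs with Galnt7. Galnt3 lies on chromosome 2 from 66082766 to 66124994 on the minus strand, and none of its 4374 exonic bases overlap those of another annotated gene. Galnt7 lies on chromosome 8 from 57523828 to 57653032 on the minus strand and shares 98 of its 5253 exonic bases with AW046200 on the other strand. Galnt2, on chromosome 8 from 124231391 to 124345724, shares 3854 of 4282 exonic bases with Gm20388, a gene on the same strand that has 0 counts in every library, and 154 with 1810008B01Rik on the other strand. Galnt4 consists of a single exon and shares 420 of 5089 bases with Poc1b on the same strand, so reads there could be counted for either gene. Galnt6 shares 441 of 3871 exonic bases with Galnt6os, and Galnt11 shares 306 with E130116L18Rik, both on the other strand. Whether the counting used strand is not given in the sources used here, so the levels of Galnt2, Galnt6, Galnt7 and Galnt11 carry that uncertainty over the bases shared with the other strand.

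The libraries held between 35375365 and 47370885 counts, and levels are given as CPM, counts scaled to a common library size after TMM normalization. Summed marker levels varied between the glands, and the ranges of the groups overlapped in every marker list read. Cell makeup itself was not measured. Summed levels of 14 epithelial markers, keratins and junction genes among them, ran from 1076 to 2012 CPM in the control and from 712 to 1109.7 CPM in the metformin group, and 12 of the 14 had a lower mean in the metformin group. All 6 luminal progenitor markers were lower on average, and summed to 1128, 1676 and 291 CPM in controls 1, 2 and 3, beside 260.3 to 349 CPM in the metformin mice. Of 6 luminal hormone-sensing markers 3 were lower, and they summed to 277 to 651 CPM in the control and 370 to 461 CPM in the metformin group. Of 7 basal markers 6 were lower, and they summed to 533 to 798 CPM in the control and 375 to 624 CPM in the metformin group. Control 3 stood apart from the other controls: its 6 milk genes summed to 616 CPM, against 39942 and 35093 in controls 1 and 2 and 260.0 to 829 in the metformin mice. All 7 adipocyte markers had a higher mean in the metformin group, at 11595 to 15131 CPM against 9008 to 12369.6. Immune markers summed to 152 to 1257 CPM in the control and 71.9 to 285 CPM in the metformin group, and that list alone had a marker at 0 in a mouse. Their part in the differences below was not tested except where a value with such a covariate is given.

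Compared per length, the members spanned a wide range of levels. In FPKM, the deposited level per kilobase of transcript, Galnt2 was the highest at 37.6 ± 1.65 (SD, n = 6 mice) and Galnt1 followed at 20.4 ± 3.51. Both are known as broadly expressed isoenzymes. Galnt11, which in human cells glycosylates LDL-receptor-family proteins, stood at 8.04 ± 1.22. These 3 kept their order in all 6 mice, and Galnt11 was above the next gene in all 6.

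The middle of the order was less settled. Galnt18 had 5.01 ± 1.04 FPKM and Galnt10 had 4.52 ± 1.33 FPKM, and Galnt18 was above Galnt10 in 4 of 6 mice. Galnt3 followed at 3.68 ± 2.67 FPKM and Galnt4 at 3.24 ± 0.594 FPKM. Galnt3 was above Galnt4 in 3 of 6 mice, which were the 3 control mice. Galnt7 stood at 2.38 ± 0.819 FPKM and was above Galnt12 in all 6 mice. Galnt12, known for its expression in human colon, had 0.603 ± 0.243 FPKM, and Galnt6 was the lowest at 0.400 ± 0.153 FPKM.

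**Figure D1:**
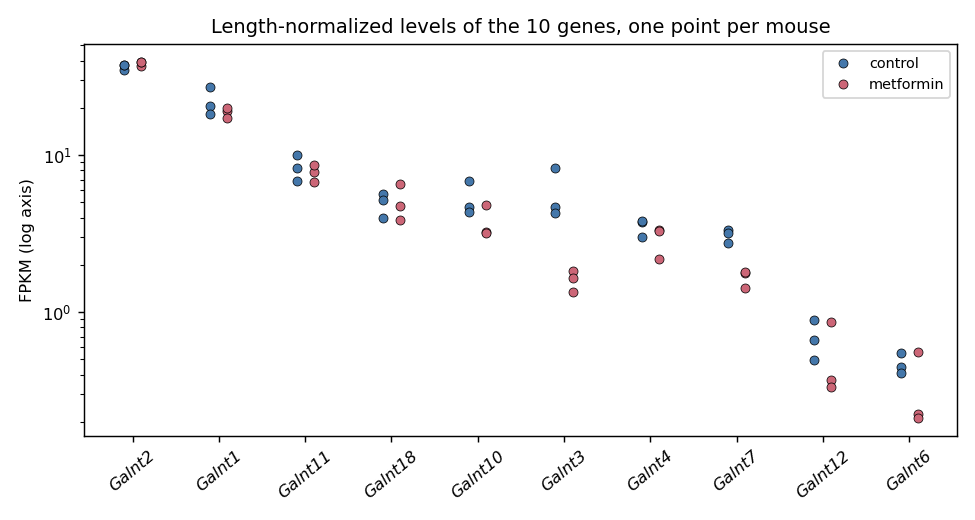
Length-normalized level (FPKM, log axis) of each of the 10 genes, ordered by the mean over all mice, with 1 point per mouse and the control and metformin groups in separate colours. Galnt2 lies highest at 34.8 to 39.4 FPKM, and Galnt3 spans 1.34 to 8.30 FPKM with its 3 metformin points below its 3 control points.

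Galnt3 showed the largest difference of the 10 genes between the groups. Its enzyme is best known for glycosylating the hormone FGF23, which protects FGF23 from cleavage. Control mice 1, 2 and 3 held 21.0, 33.2 and 16.1 CPM of Galnt3, and metformin mice 1, 2 and 3 held 7.87, 6.33 and 6.56 CPM. Every metformin mouse was below every control mouse, and the controls were spread far more widely than the metformin mice. The means were 23.4 ± 8.82 and 6.92 ± 0.832 CPM (SD, n = 3 each), a log2 fold change of -1.76 (SE 0.29).

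Galnt7, an isoenzyme that acts mainly on peptides already carrying a GalNAc, was the other member whose groups did not overlap. Control mice 1, 2 and 3 held 16.7, 14.2 and 11.5 CPM of Galnt7, and the metformin mice held 8.16, 7.43 and 7.86 CPM. The metformin mice lay close together and the lowest control was control 3. The means were 14.1 ± 2.63 and 7.82 ± 0.364 CPM, a log2 fold change of -0.85 (SE 0.20).

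A gene was counted as past the thresholds of the study when it changed by at least 1.5-fold in either direction at an unadjusted p under 0.01, here from the edgeR quasi-likelihood test. Of the 10 members 2 were past them, Galnt3 and Galnt7, both lower in the metformin group, where 1.28% of all tested features were past them in that direction and 1.70% in either direction. The same 2 were the members whose groups did not overlap, which held for 13.2% of all tested features. Since the genes were listed with this contrast known, nothing is read from these shares. After Benjamini-Hochberg adjustment over the 15925 features neither passed 0.05, with an edgeR adjusted p of 0.539 for both, and no feature of the whole table did. At an unadjusted p under 0.05 in edgeR the table had 1199 features. At an adjusted p under 0.05 DESeq2 called 200, Galnt3 (4.4e-05) and Galnt7 (0.0229) among them, and limma-voom called 0. The members had a median log2 fold change of -0.28 with 8 lower and 2 higher, beside a median of 0.01 over all tested features.

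**Figure D2:**
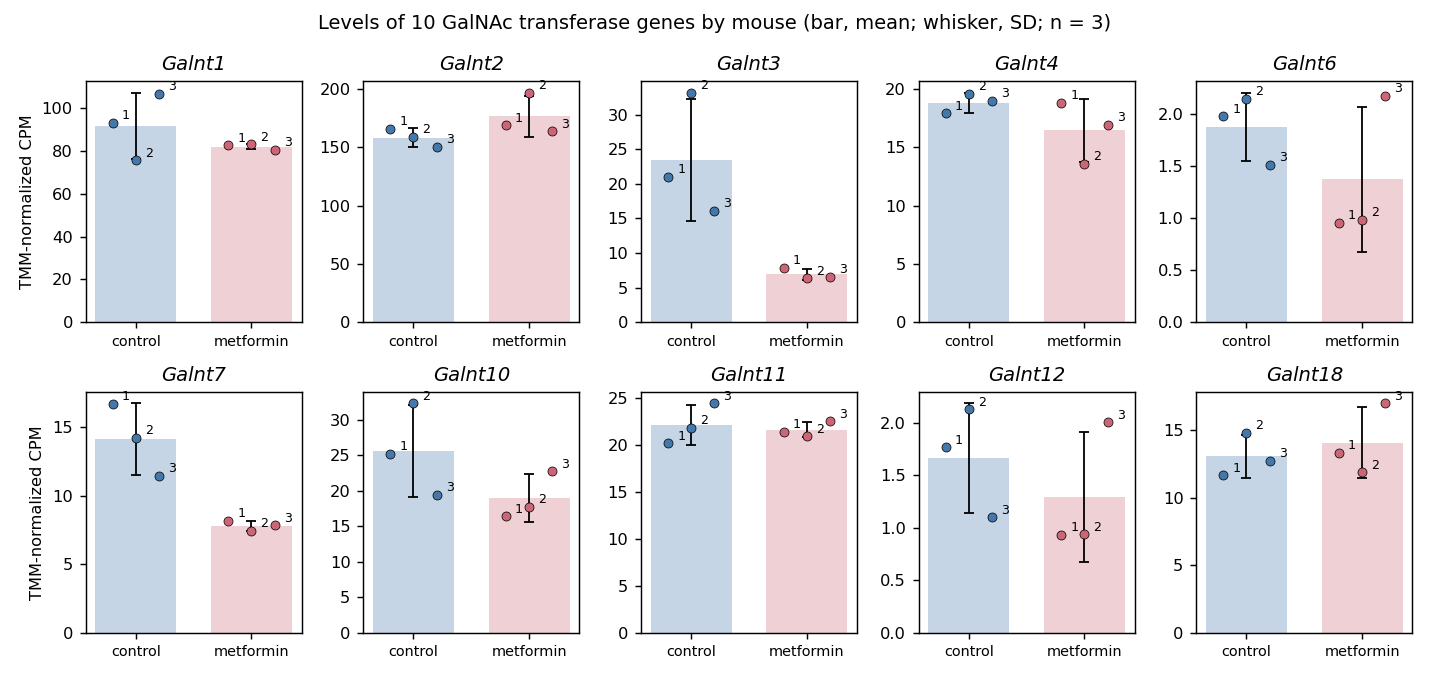
TMM-normalized CPM of each gene in each mouse, with the replicate number at each point, bars for the group mean and whiskers for the SD (n = 3). For Galnt3 and Galnt7 all metformin points lie below all control points, and for the other 8 genes the groups overlap.

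Galnt10 and Galnt4, which also prefer glycosylated peptides, did not separate the groups. Galnt10 had 25.2, 32.3 and 19.4 CPM in the controls, beside 16.4, 17.8 and 22.7 CPM in metformin mice 1, 2 and 3. Metformin mouse 3 was above control 3, so the groups overlapped, with a log2 fold change of -0.44 (SE 0.23). Galnt4 was at 17.9, 19.6 and 19.0 CPM in the control and 18.8, 13.6 and 16.9 CPM in the metformin group. Only metformin mice 2 and 3 were below every control for this gene, and its log2 fold change was -0.20 (SE 0.17).

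Galnt6 and Galnt12 were the members with the lowest CPM and had a similar order of mice. Galnt6 was at 1.98, 2.15 and 1.52 CPM in the control and at 0.956, 0.986 and 2.18 CPM in the metformin group. Galnt12 was at 1.77, 2.13 and 1.10 CPM in the control and at 0.934, 0.938 and 2.00 CPM in the metformin group. For both genes metformin mice 1 and 2 were below every control and metformin mouse 3 was not. The log2 fold changes were -0.45 (SE 0.44) for Galnt6 and -0.37 (SE 0.46) for Galnt12, close to the size of their errors. Without metformin mouse 3 they were -0.95 (SE 0.41) and -0.83 (SE 0.47), and neither gene was past the thresholds.

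The broadly expressed members lay near a log2 fold change of 0. Galnt1, on chromosome 18, was at 93.3, 75.7 and 106.7 CPM in the control and 80.6 to 83.1 CPM in the metformin group, with a log2 fold change of -0.16 (SE 0.17). Its highest and lowest values were both controls. Galnt2 was at 166, 159 and 150.2 CPM in the control and 169, 197 and 164 CPM in the metformin group. Metformin mouse 3 was below control 1, and the log2 fold change was 0.16 (SE 0.16).

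Galnt11 was at 20.2 to 24.4 CPM in the control and 20.9 to 22.5 CPM in the metformin group, with a log2 fold change of -0.03 (SE 0.15). Galnt18 was at 11.7 to 14.8 CPM in the control and 11.9 to 17.0 CPM in the metformin group, with a log2 fold change of 0.11 (SE 0.20). The metformin range of Galnt11 lay inside its control range, and the ranges of Galnt18 overlapped.

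**Figure D3:**
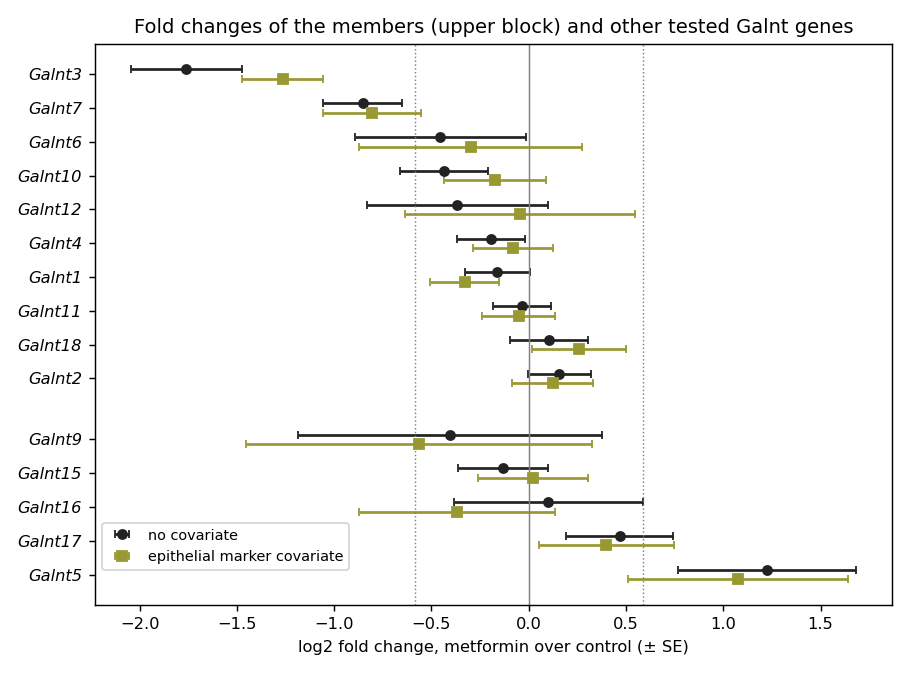
Log2 fold change of metformin over control (± SE) for the 10 members, in the upper block, and the 5 other tested Galnt genes, without a covariate (circles) and with the epithelial marker level as a covariate (squares). Dotted lines mark a fold change of 1.5, and Galnt3 lies beyond it at -1.76 without and -1.27 with the covariate. Galnt7 also lies beyond it, at -0.85 and -0.80, and Galnt5 does so on the other side, at 1.23 and 1.08.

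The shares of the family held by Galnt3 and Galnt7 were lower in the metformin group. These shares rest on the same genes and mice as the differences above, so they are no separate result. Of the FPKM summed over the 19 Galnt genes, Galnt3 made up 4.76%, 7.28% and 3.46% in the controls, beside 1.89%, 1.51% and 1.46% in the metformin mice. Galnt7 made up 3.42%, 2.81% and 2.23% in the controls, beside 1.82%, 1.61% and 1.59% in the metformin mice. Galnt2 made up 33.0% ± 2.51 of the sum in controls, beside 39.1% ± 5.07 in metformin mice, and the groups overlapped. The summed FPKM of all Galnt genes was 112 ± 12.6 in controls, beside 99.9 ± 13.0 in metformin mice, a difference within the spread of the mice. For the 10 members alone the summed FPKM was 90.7 ± 6.70 in controls and 81.0 ± 5.95 in metformin mice, with overlapping groups. Their summed CPM was 376, 375 and 363 in the controls, beside 339, 359.9 and 342 in the metformin mice, so on that scale every metformin mouse was below every control. Single features did so or the reverse in 13.2% of all tested. The sum holds Galnt3, with means of 23.4 and 6.92 CPM, and Galnt7, with 14.1 and 7.82 CPM, so it is no result apart from these genes. The sums and shares are of transcripts, and no enzyme activity was measured here.

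Because epithelial marker levels differed between the glands, the members were also expressed per 1000 CPM of the 14 epithelial markers. On that scale the controls had 19.5, 16.5 and 14.7 for Galnt3, beside 7.09, 8.88 and 7.43 in the metformin mice. The groups did not overlap, and the controls lay closer together than in CPM, with means of 16.9 ± 2.42 and 7.80 ± 0.950. Galnt7 was 15.5, 7.07 and 10.5 in the controls, beside 7.35, 10.4 and 8.91 in the metformin mice, and its groups overlapped on this scale. Galnt18 was 10.8, 7.36 and 11.7 in the controls, beside 12.0, 16.7 and 19.3 in the metformin mice, so the metformin mice were the higher ones. These 2 of 10 members, Galnt3 and Galnt18, did not overlap on this scale, where 22.5% of all tested features did not.

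In the edgeR fit with the mean epithelial marker level as a covariate, the log2 fold change of Galnt3 was -1.27 (SE 0.21), and Galnt3 remained past the thresholds, which 0.641% of all tested features were in that fit. Galnt7 had -0.80 (SE 0.25) and was no longer past them. With luminal progenitor markers as the covariate the log2 fold change was -1.16 for Galnt3 and -0.59 for Galnt7, and with adipocyte markers it was -1.24 and -0.57. In both of those fits Galnt3 was past the thresholds and Galnt7 was not. Of all 15925 features, 270 were past them with the luminal progenitor covariate and 372 with the adipocyte covariate.

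**Figure D4:**
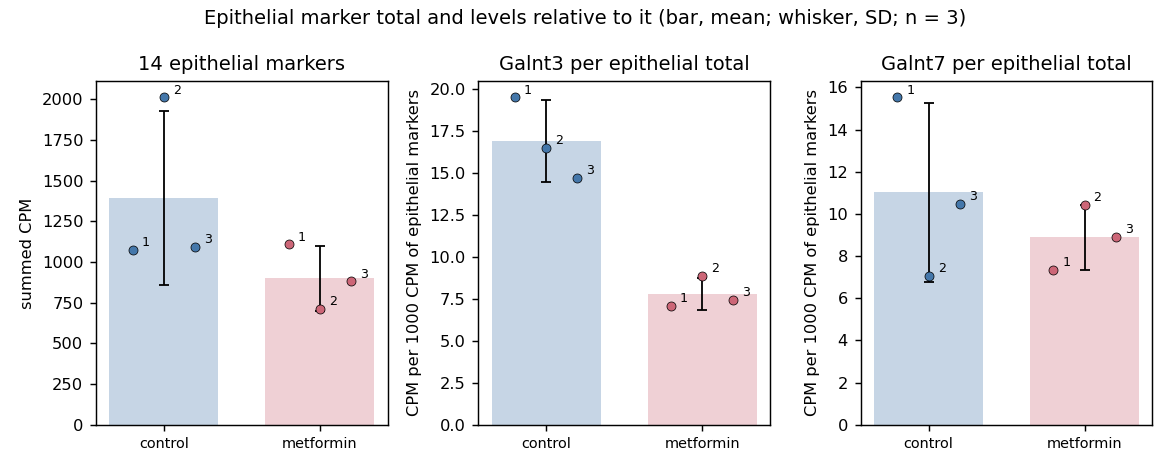
Summed CPM of the 14 epithelial markers, and Galnt3 and Galnt7 in CPM per 1000 CPM of those markers, by mouse, with bars for the group mean and whiskers for the SD (n = 3). The groups do not overlap for Galnt3, 14.7 to 19.5 against 7.09 to 8.88, and they overlap for Galnt7.

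The libraries that stand apart were left out in turn. Galnt3 was past the thresholds in each of the 6 fits without a mouse, with log2 fold changes from -1.97 without control 3 to -1.42 without control 2. Of all features, 666 of 16406 were past them without control 3 and 107 of 16108 without control 2, the most and the fewest of these fits. Control 3 was the control whose milk and progenitor genes were at the level of the metformin mice. Set against it alone, Galnt3 had a log2 fold change of -1.22 and Galnt7 had -0.55. Galnt7 was not past the thresholds without control 1 (-0.72), metformin mouse 2 (-0.82) or metformin mouse 3 (-0.86). In the fit against control 3 alone only the metformin mice give an estimate of the spread, which is taken to hold for the single control too.

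The other 9 Galnt genes had no member past the thresholds, and 5 of them were tested by edgeR. Of these 1 had an unadjusted p under 0.05, beside 1199 of all 15925 features. Galnt5 was at 0.365, 0.261 and 0.464 CPM in the control and at 0.978, 0.650 and 0.926 CPM in the metformin group, which rests on 12 to 44 counts a library. Its log2 fold change was 1.23 (SE 0.46), and every metformin mouse was above every control. Galnt17, which is in the same subfamily as Galnt18, was at 2.34 to 2.64 CPM in the control and at 3.18 to 3.87 CPM in the metformin group, with a log2 fold change of 0.47 (SE 0.27). The groups of Galnt17 did not overlap. Groups without overlap, as for Galnt5 and Galnt17, were seen in 13.2% of all tested features.

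Galnt15 was the most abundant of these, at 107 ± 21.2 and 97.8 ± 22.6 CPM, with a log2 fold change of -0.13 (SE 0.23). Galnt16 was at 14.7 ± 8.17 and 15.7 ± 8.36 CPM, and Galnt9 at 1.66 ± 1.55 and 1.25 ± 0.829 CPM. The groups of these 3 genes overlapped. Galnt13, Galnt14, Galntl5 and Galntl6 did not pass the filter for low counts. Galnt13 had 6 counts in control 3 and in metformin mouse 1, Galnt14 had 4 and Galntl6 had 5 counts in control 1, and Galntl5 had 0 in every library.

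The genes whose course over the 6 mice was most like that of Galnt3 were found by the root mean square difference of log2 CPM after subtracting each gene's mean, among 13882 genes at a mean of at least 1 CPM. They were Nox4, a hydrogen peroxide-forming NADPH oxidase, at 0.12, Glrb, a glycine receptor subunit, at 0.15, Tmtc2 at 0.17, Mmp16, a membrane-type metalloproteinase, at 0.18 and Elovl7, a fatty acid elongase, at 0.20. Nox4 had 11.2, 20.0 and 8.90 CPM in the controls, beside 3.95 to 4.71 CPM in the metformin mice. Elovl7 was at 13.1, 17.0 and 6.65 CPM in the control and at 3.58 to 3.63 CPM in the metformin group. In all 5 genes control 2 was the highest and control 3 the lowest of the controls, as for Galnt3. Among the members Galnt7 was the nearest to Galnt3 at 0.51, followed by Galnt10 at 0.68, and Galnt2 was the farthest at 0.98. The genes were chosen for this likeness, so their own differences between the groups are no added result.

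The annotated neighbours within 200000 bases that were tested were not past the thresholds. Ttc21b, a ciliary transport gene 59333 bases from Galnt3, had a log2 fold change of -0.24 (SE 0.21). For Hmgb2, a chromatin protein gene 7829 bases from Galnt7, it was -0.28 (SE 0.33). For Sap30, a subunit gene of a histone deacetylase complex 35968 bases from Galnt7, it was -0.01 (SE 0.25). Each of the 3 differences was close to or below its error.

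The enzymes that act after the transferases were read from lists of the pathway. Of 7 genes that extend the first GalNAc, 5 were tested, 4 were lower and 1 was higher, with a median log2 fold change of -0.35 and none past the thresholds in edgeR, DESeq2 or limma-voom. In edgeR 1 of them had an unadjusted p under 0.05, beside 1199 of all 15925 features. That gene was C1galt1c1, the chaperone that C1galt1 needs to fold, at 24.2, 22.2 and 22.6 CPM in the control and at 20.0, 17.2 and 15.6 CPM in the metformin group. Its groups did not overlap, as for 13.2% of all tested features. The means were 23.0 ± 1.07 and 17.6 ± 2.22 CPM, with a log2 fold change of -0.38 (SE 0.16) and an edgeR adjusted p of 0.653. C1galt1, the core 1 synthase, was at 57.3 ± 15.4 and 44.9 ± 9.19 CPM, a log2 fold change of -0.35 (SE 0.23), and its groups overlapped.

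Of 8 capping enzymes, 6 were tested, 3 were lower and 3 higher, with a median of 0.04, none past the thresholds by any of the 3 tools and none at an unadjusted p under 0.05 in edgeR. St6galnac2, which adds sialic acid to the GalNAc, was at 21.3 ± 4.01 and 16.4 ± 2.83 CPM, a log2 fold change of -0.38 (SE 0.20). Fut2, a fucosyltransferase, was at 0.260 ± 0.269 and 0.612 ± 0.183 CPM, a log2 fold change of 1.20 (SE 0.95). St6galnac1 had 0 counts in every library. For St6galnac2 and Fut2 the groups overlapped.

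Of 14 genes of nucleotide sugar supply, all tested, 8 were lower and 6 higher, with a median of -0.11, none past the thresholds by any of the 3 tools and none at an unadjusted p under 0.05 in edgeR. Nans, the sialic acid synthase, was at 36.4, 46.6 and 18.7 CPM in the control and at 22.4, 15.9 and 22.8 CPM in the metformin group, with a log2 fold change of -0.74 (SE 0.33). Controls 1 and 2 were its highest mice, and control 3 lay within the metformin range. Gfpt1, which controls entry into the hexosamine pathway, was at 62.3 ± 7.44 and 51.0 ± 6.91 CPM, a log2 fold change of -0.29 (SE 0.17).

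Of 24 genes for proteins known to carry O-GalNAc chains, 22 were tested, 11 were lower and 11 higher, with a median of 0.01. In edgeR 5 had an unadjusted p under 0.05, beside 1199 of all 15925 features. Past the thresholds was 1 of the 22, beside 1.70% of all tested features. That gene was Csn3, which encodes kappa-casein, at 3139, 3517 and 342 CPM in the 3 controls, beside 161 to 224 CPM in the metformin mice. Its log2 fold change was -3.65 (SE 0.79), and it is itself a milk gene, of which controls 1 and 2 held far more than control 3. The mucin gene Muc15 was at 524, 594 and 45.2 CPM in the control and at 26.1 to 88.1 CPM in the metformin group, so control 3 lay inside the metformin range, with a log2 fold change of -2.93 (SE 0.89). The remaining tested mucin genes were named after their values were seen. Muc1, Muc4 and Muc20 had log2 fold changes of -2.13 (SE 0.68), -2.32 (SE 0.85) and -1.92 (SE 0.72), Muc16 had -0.86 (SE 1.07), and Muc13, at 0.409 ± 0.491 CPM in controls and 2.02 ± 2.88 CPM in metformin mice, had 2.31 (SE 1.51). Control 3 lay within the metformin range for Muc1, Muc4 and Muc20 too, at 5.21 CPM for Muc1. Glycam1 and Fgf23 did not pass the filter for low counts. Glycam1 was at 821 and 315 CPM in controls 1 and 2, at 0 in control 3 and at 0.0751 to 0.133 CPM in the metformin mice. Fgf23 had 4 counts in control 3 and 0 in every other library. Without control 3, 7 of the acceptor genes were past the thresholds, 6 lower and 1 higher, beside 666 of 16406 features in that fit. Over all mice DESeq2 put 5 past them, all lower, and limma-voom 3, with 2 lower and 1 higher. Of all 15925 features DESeq2 put 519 past them and limma-voom 401.

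For comparison, 15 genes that start other kinds of O-glycosylation were read from the same fit. Of these 7 were lower and 8 higher, with a median of 0.03. Every control was above every metformin mouse for 2 of them and below for 3, where 13.2% of all tested features did not overlap. In edgeR 4 had an unadjusted p under 0.05, beside 1199 of all 15925 features. Past the thresholds was 1 of the 15, beside 1.70% of all tested features. That gene was Tmtc2, which takes part in the O-mannosylation of cadherins, at 12.6, 20.3 and 9.43 CPM in the control and at 5.34, 4.52 and 5.41 CPM in the metformin group. Its groups did not overlap, and its log2 fold change was -1.47 (SE 0.30). Pomt1, an O-mannosyltransferase of dystroglycan, was at 27.5 ± 1.21 CPM in the control and 36.6 ± 2.27 CPM in the metformin group, a log2 fold change of 0.41 (SE 0.13). Every metformin mouse was above every control for Pomt1, which was not past the thresholds.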

How the data were processed

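Poly(A) RNA of 6 whole mammary glands was sequenced. Per the labels and the methods of the authors, reads were mapped to GRCm38 (mm10). The submitters' processing notes list HISAT2 and StringTie. The sources used here give neither their versions nor the tool that counted reads nor the use of strand. Counts as deposited are unnormalized whole numbers per gene from the authors. The deposited FPKM values are the authors' levels per transcript length and depth, used for the order of levels and for alternatives.

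The counts were fitted with edgeR 4.0.16 in R 4.3.3 (filterByExpr, TMM, quasi-likelihood F test), with Benjamini-Hochberg adjustment over 15925 features. The SE is the absolute log2 fold change over the square root of F. A gene counted as past the thresholds at a fold change of at least 1.5 and an unadjusted p under 0.01, the criteria of the study. Levels are mean ± SD, and with 3 mice against 3 the smallest two-sided exact permutation p for a single value is 0.1, so none is given. The libraries held 35375365 to 47370885 counts, and genes near 1 CPM, such as Galnt6 and Galnt12, rest on the fewest counts.

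The members, pathway lists and marker lists were chosen with earlier results of these data known. Named genes are the 10 members, the other Galnt genes, pathway genes past the thresholds or, in a list with under 2 of these, its 2 with the smallest p, and the 5 genes most like Galnt3. Outside this rule, St6galnac1, Glycam1, Fgf23, the tested mucin genes other than Muc15 and the neighbours Ttc21b, Hmgb2 and Sap30 were named after their values were seen. The same holds for genes named only for sharing exonic bases. Positions, exon overlaps and coding sequences came from GENCODE vM21 on GRCm38. Alternatives were DESeq2 1.42.0, limma-voom (limma 3.58.1) with quality weights, RLE normalization, no filter, at least 10 counts in every sample, leaving out features assembled by the authors (NewGene), a replicate block, an epithelial marker covariate, limma on log2(FPKM + 1) or log2(FPKM + 0.1), and each mouse left out. Adipocyte and luminal progenitor covariates and control 3 as the only control were chosen after seeing the data. The pipeline was tested on simulated data.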

Additional observations from a re-analysis of the deposited data

How the results depend on the processing

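Galnt3 was past the thresholds in all 20 alternatives, with log2 fold changes from -1.97 to -1.16 and adjusted p from 4.4e-05 in DESeq2 to 0.873 with the replicate block. Galnt7 was lower in all 20, from -0.98 to -0.55, and past the thresholds in 13, with an adjusted p from 0.0229 in DESeq2 to 0.873. The count of 2 members became 1 with the epithelial, adipocyte or luminal progenitor marker covariate and with control 3 as the only control, and ranged from 1 to 2 with a mouse left out. No other member was past the thresholds in any alternative, and the sign of Galnt10, Galnt11, Galnt12 and Galnt18 was not kept in 1, 2, 3 and 1 of them.

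The count of acceptor genes, 1 in the report, was 5 in DESeq2, 3 in limma-voom, 4 without a filter, and 0 with the replicate block, the epithelial or luminal progenitor covariate, log2(FPKM + 1) without a filter or control 3 as the only control. It ranged from 1 to 7 with a mouse left out, 7 without control 3. The count for sugar supply ranged from 0 to 1, and that of other initiators was 0 with control 3 as the only control. The cause of these moves was not tested.

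Over all features, 271 were past the thresholds, against 519 in DESeq2, 165 and 98 with log2(FPKM + 1) with and without a filter, 102 with the epithelial covariate, 118 with the replicate block and 107 to 666 with a mouse left out, 666 without control 3, where 96 had an adjusted p under 0.05. Lower and higher calls were 204 and 67, against 106 and 266 with the adipocyte covariate, 69 and 201 with the luminal progenitor covariate, 46 and 56 with the epithelial covariate and 53 and 223 against control 3 alone. With the replicate block, Galnt3 had -1.70 and Galnt7 -0.84, and the count of members stayed at 2. Same-numbered mice did not deviate together, with correlations of -0.35, -0.14 and -0.01, so the numbers were not taken as pairs.

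Limits are the 3 mice a group, the whole tissue and the marker levels that differ between the mice. The low genes Galnt6 and Galnt12 had the lowest CPM and the largest SEs of the members, and leaving out metformin mouse 3 moved them to -0.95 and -0.83.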
